A study of Mus musculus with 4 samples.

Results

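Genes of DNA replication and mitosis were examined in RNA-seq of reconstituted ovaries (rOvaries), grafts made by aggregating germ cell precursors with somatic cells of fetal gonads and placing them under the kidney capsule. The set held 45 genes, matched by symbol, of the 54021 symbols in the count table. Of these, 29 act in S phase (replicative helicase and its loading, clamp, clamp loader, polymerases, nucleotide supply, cyclins E and A, Cdk2), 11 act in M phase (B cyclins, Cdk1, mitotic kinases, checkpoint and chromosome proteins), and 5 are the D cyclins with Cdk4 and Cdk6, which act in G1. S phase and M phase genes are reported apart.

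Both groups consisted of rOvaries recovered 1 month after transplantation from generation 2 (G2) Terc-/- mice, which lack the RNA component of telomerase. The recipients were C57BL/6 females aged 2 to 3 months whose own ovaries had been removed on both sides, and the donor germ cells carried an actin-GFP transgene. One group received INK128, an inhibitor of the mTOR kinase, at 0.75 µM per g by the labels, and the controls did not. Each group had 2 libraries, called here INK128 1, INK128 2, control 1 and control 3 after their labels. The labels do not say whether the libraries came from separate recipients, so p-values measure only the spread between these libraries. That spread may not be one between animals, and in the INK128 group it may be technical. The controls differed in Y-linked and oocyte transcripts, as given below.

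Cells commit to division in G1, when D cyclins activate Cdk4 and Cdk6 and the retinoblastoma protein releases E2F transcription factors. E2F factors drive genes of S phase, in which the MCM helicase unwinds DNA and polymerases copy it behind the sliding clamp, and B cyclins with Cdk1 then drive mitosis. In an ovary many of the dividing cells are granulosa cells of growing follicles, whereas oocytes are arrested in meiosis and store transcripts of several cyclins. The mTOR kinase couples growth signals to protein synthesis and to entry into the cycle.

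Counts summed to between 19130209 and 23029089 per library. CPM, counts relative to library size, were scaled with TMM factors, 3 counts corresponded to between 0.127 and 0.161 CPM, and these floors cover counting error only. The 2 INK128 libraries correlated across genes at r = 0.98 and the 2 controls at 0.806, and 1% against 13.8% of the tested genes lay more than 2-fold apart within a group. Counts from 4 Y-linked genes were 2, 0, 1021 and 0 in INK128 1, INK128 2, control 1 and control 3. Granulosa markers were detected in all 4 libraries, at a summed level of between 3704 and 8966 CPM over 10 genes, though single markers differed between the controls, with Amh at 435 CPM in control 1 and 5.10 CPM in control 3. Theca and luteal markers summed to 781 CPM in control 1 and 10875 CPM in control 3, and to 3887 and 5096 CPM with INK128. Summed over 12 oocyte markers, the level was 1165, 859 and 842 CPM in INK128 1, INK128 2 and control 1 but 28.2 CPM in control 3. Over 7 Sertoli cell markers it was 328, 353, 1188 and 375 CPM in INK128 1, INK128 2, control 1 and control 3, of which Gata4, shared by other gonadal somatic cells, supplied 252, 267, 231 and 334 CPM, and the Sertoli factor Sox9 stood at 4.51, 6.21, 148 and 4.43 CPM in the same order. The controls thus differed from each other in germ cell and gonadal transcripts, and the results over each set are given without each of them.

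Of the 45 members, 43 had a mean above 10 CPM and were tested with edgeR's quasi-likelihood test, adjusted over all 11758 tested genes. A call needed more than a 1.5-fold difference together with an adjusted p under 0.05. Changes are given as log2FC, the log2 ratio of INK128-treated over control rOvaries, with its standard error (SE). Called genes made up 6.37% of all tested genes, 3.18% higher and 3.19% lower. Of the members 1 was called, Ccnd1, which was lower with INK128, and none was called higher. None of the 27 tested S phase genes and none of the 11 M phase genes was called. DESeq2 called 4 members, Cdk4 and Rfc4 higher and Ccnd1 and Cdk6 lower, against 28.6% of all tested genes. At an unadjusted p below 0.05, edgeR gave 4 S phase members higher and 0 lower, and 0 M phase members higher and 1 lower, against 17.7% and 18.7% of all genes. The calls stood close to the threshold: adjusted p values of all called genes lay between 0.0464 and 0.0499, and 873 further genes with a fold change above 1.5 lay between 0.05 and 0.06.

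The median log2FC was 0.23 over the S phase genes, 0.07 over the M phase genes and −0.57 over the G1 cyclins and their kinases, beside −0.03 over all tested genes. In the S phase set 19 genes had a positive and 8 a negative value, with a range of −0.51 to 0.94. In the M phase set 6 were positive and 5 negative, with a range of −0.55 to 0.97. Both INK128 libraries lay above both controls for 12 S phase and 4 M phase genes and below them for 2 and 3, where all genes gave 34.5% above and 34% below. The middle of all tested genes, from −0.57 to 0.49, held most members of both sets.

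**Figure D1:**
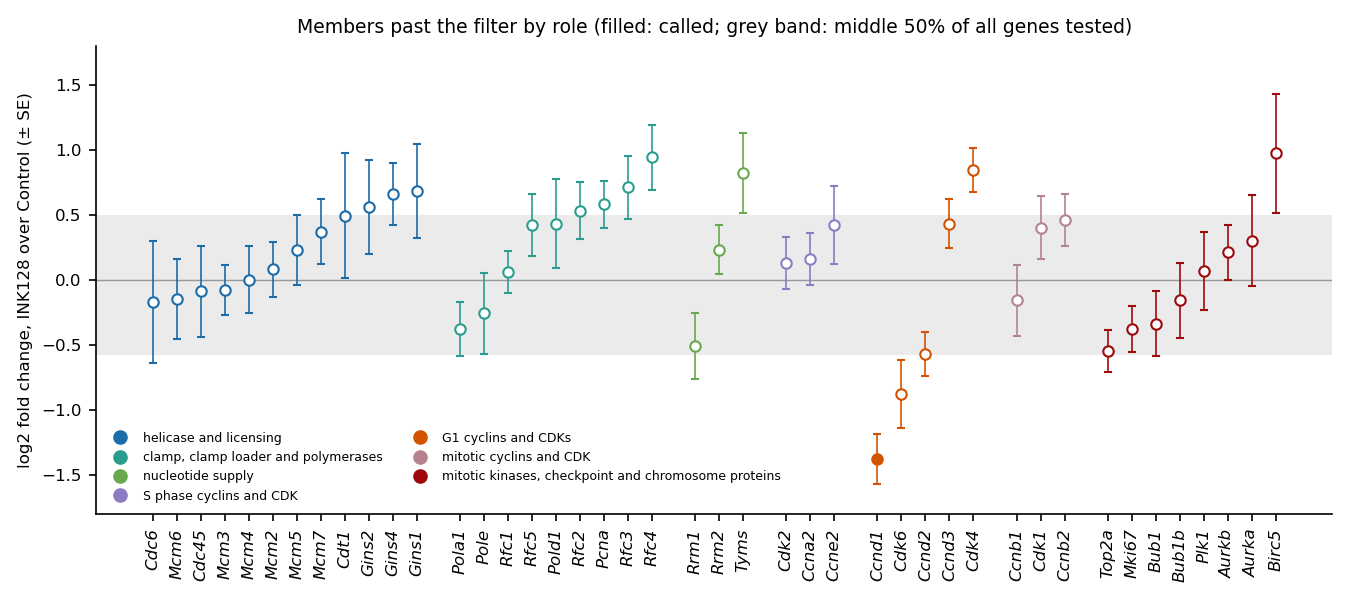
The log2FC of INK128-treated over control rOvaries (vertical axis, ± standard error from edgeR) is plotted for the 43 tested members, grouped by role along the horizontal axis, with a grey band for the range from lower to upper quartile of all 11758 genes. The 1 filled point is Ccnd1 at −1.38, the called member, and the G1 genes run from there up to Cdk4 at 0.84, whereas most S phase and M phase points lie inside the band.

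Among the G1 genes, Ccnd1, which encodes cyclin D1, fell. It lies on chromosome 7 of mm10 from 144929931 to 144939925 and stood at 37.2 CPM in INK128 1, 45.6 in INK128 2, 103 in control 1 and 112 in control 3. Both treated rOvaries were below both controls, with means of 41.4 ± 5.96 CPM and 107 ± 6.66 CPM (SD, n = 2 each). The controls were 2.59-fold higher, a log2FC of −1.38 (SE 0.19, edgeR adjusted p = 0.0464). DESeq2 gave an adjusted p of 8.8e-07 for Ccnd1 and limma voom 0.0599, and voom called no gene of the table, with 3979 at an unadjusted p below 0.05. Without either control in turn Ccnd1 was still called. Without either INK128 library no gene of the whole table was called, with 1567 (INK128 1 left out) and 1349 (INK128 2 left out) at an unadjusted p below 0.05, and Ccnd1 was at −1.23 (edgeR adjusted p = 0.371) or −1.52 (edgeR adjusted p = 0.431). In a bulk sample fewer cells of a type and less RNA per cell cannot be told apart.

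The paralog Ccnd2, encoding cyclin D2, which granulosa cells need to proliferate, lies on chromosome 6 from 127125162 to 127152193. It stood at 207 and 220 CPM with INK128 and at 308 and 324 CPM in controls 1 and 3. The groups did not overlap, but the log2FC of −0.57 (SE 0.17, edgeR adjusted p = 0.0930) was not called. Ccnd3, encoding cyclin D3, on chromosome 17 from 47505051 to 47599691, went the other way, with 132 and 155 CPM against 115 and 97.5 CPM. Its value of 0.43 (SE 0.19, edgeR adjusted p = 0.178) did not pass either, and 4.11% of its exon bases overlap Bysl on the opposite strand, which was at 0.88 (edgeR adjusted p = 0.0526).

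Cdk4, the kinase partner of the D cyclins, lies on chromosome 10 from 127063534 to 127067920. It stood at 443 and 466 CPM with INK128 and at 256 and 252 CPM in the controls, so the treated libraries lay well above both controls. Its log2FC was 0.84 (SE 0.17), with an adjusted p of 0.0531 in edgeR and 3.2e-05 in DESeq2. It overlaps Tspan31 on the opposite strand over 19.7% of its exon bases, and Tspan31 had a log2FC of 0.67 (edgeR adjusted p = 0.0703). The strand setting of the counting is not given in the sources used here, so reads in the overlap cannot be told apart.

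Cdk6, the other partner kinase, on chromosome 5 from 3341485 to 3531008, stood at 30.9 and 28.6 CPM with INK128 and at 65.7 and 44.0 CPM in the controls. Both treated values were below both controls, with a log2FC of −0.88 (SE 0.26) and an adjusted p of 0.0898 in edgeR and 0.03 in DESeq2. Without control 3 it was −1.16 (edgeR adjusted p = 0.000385), over the libraries left out in turn it ranged from −1.16 to −0.58, and with offsets for exon length it was −0.28 (edgeR adjusted p = 0.575). All 5 G1 genes separated the groups, 3 below and 2 above the controls, where 34% and 34.5% of all genes did so.

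**Figure D2:**
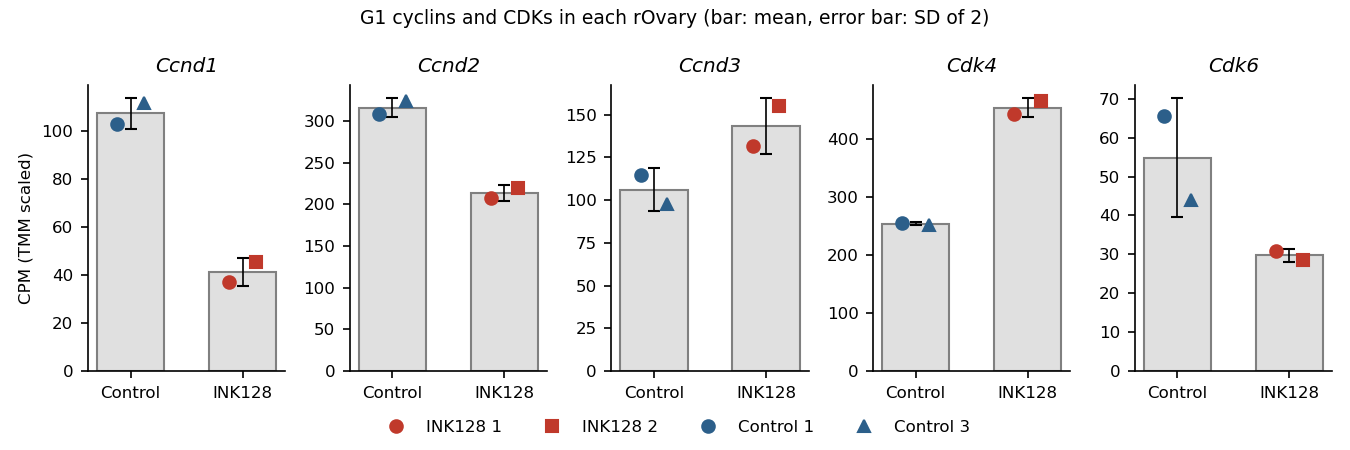
Each panel plots the TMM-scaled CPM of 1 G1 gene in the 4 rOvaries (points), with the group mean as a bar and the SD of 2 libraries as the error bar. Ccnd1, Ccnd2 and Cdk6 are lower and Ccnd3 and Cdk4 higher in both INK128-treated rOvaries than in either control.

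To compare levels between the D cyclins, CPM were divided by the length in kb of each gene's principal annotated transcript. Per kb, Ccnd1 made up 9.46% and 10.1% of D cyclin transcripts in INK128 1 and 2 and 21.1% and 23.5% in controls 1 and 3. The share of Ccnd3 was 59.4% and 61% with INK128 and 41.7% and 36.3% in controls, and that of Ccnd2 was 31.1% and 28.9% against 37.3% and 40.2%. For all 3 genes the groups did not overlap. Divided by the length of all annotated exons, the share of Ccnd1 was again lower with INK128 (17.6% and 19.1% against 32.3% and 34.3%) and that of Ccnd3 higher (33.5% and 34.8% against 19.4% and 16%). The share of Ccnd2 then overlapped between groups, at 49% and 46.1% against 48.3% and 49.7%, and it was the largest D cyclin in all 4 libraries, so the order of the 3 levels depends on the length used. Per kb of principal transcript, Cdk4 exceeded Cdk6 80.5-fold and 91.5-fold with INK128 and 21.9-fold and 32.2-fold in the controls. These shares are descriptions of the same counts and were not tested.

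**Figure D3:**
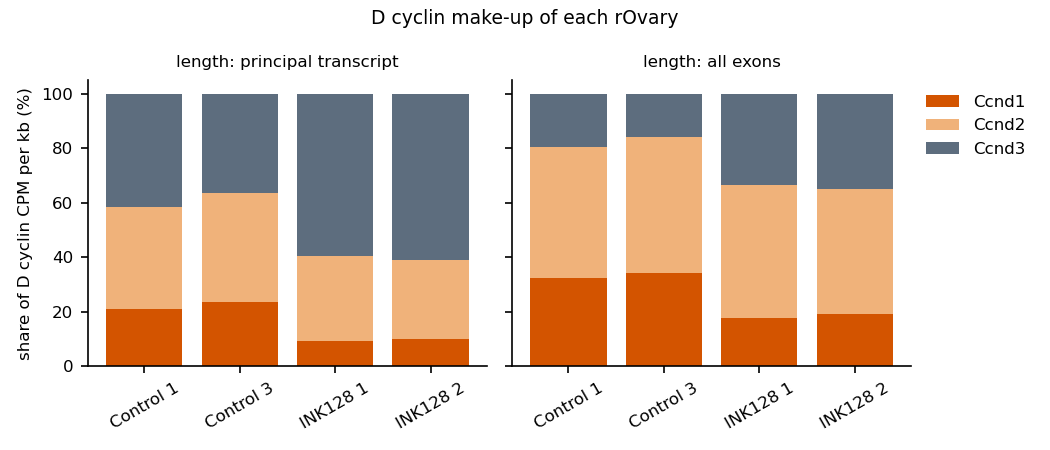
Stacked bars give the percentage of D cyclin CPM per kb taken by Ccnd1, Ccnd2 and Ccnd3 in each rOvary (horizontal axis), with the length of the principal transcript on the left and of all exons on the right. With either length the Ccnd1 segment is smaller and the Ccnd3 segment larger in both INK128 bars than in both control bars.

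S phase and M phase genes are known to carry different promoter motifs, the E2F site in S phase genes and the CCAAT box with the cell cycle homology region (CHR) in mitotic genes. RefSeq promoters (GRCm38.p6) were matched for 34 of the 45 members, which gave 36 promoters, and the 250 bases before the start were searched on both strands. An E2F core (TTGGCGC or TTGCCGC or TTCGCGC or TTCCCGC) was in 50% of S phase promoters (11 of 22), 30% of M phase promoters (3 of 10) and 7.89% of all 32851 promoters. A CHR (TTTGAA or TTCGAA) was in 22.7%, 50% and 17.1% of the same 3 sets, and a CCAAT box in 68.2%, 90% and 33.8%. None of the 4 matched G1 promoters, which belong to 3 genes and not to Ccnd1 or Ccnd2, had an E2F core or a CHR, and 1 had a CCAAT box. An E2F core read on the reverse strand can share letters with a CCAAT box. Bases after the start were not searched, so motifs there are not counted. These matches are descriptions of letters, and the expression values above do not test them.

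The promoters of 4 members are shown 5′ to 3′ on the gene's strand, each ending at the base before the start, with E2F cores, CHRs and CCAAT boxes in capitals. Mcm6 (chr1:128359706-128359955, minus strand) and Cdk1 (chr10:69352913-69353162, minus strand) were picked after the search as examples of an S phase promoter with 2 pairs of overlapping E2F cores and of a mitotic promoter with all 3 motifs. Ccnb2 (chr9:70421555-70421804, minus strand) and Rfc4 (chr16:23127731-23127980, minus strand) have the largest changes of their role groups. Ccnb2 has 1 match to the CHR letters at 167 bases before the start, followed by 3 CCAAT boxes at 87, 54 and 21 bases. Rfc4 has none of the 3 motifs in this window.
Mcm6: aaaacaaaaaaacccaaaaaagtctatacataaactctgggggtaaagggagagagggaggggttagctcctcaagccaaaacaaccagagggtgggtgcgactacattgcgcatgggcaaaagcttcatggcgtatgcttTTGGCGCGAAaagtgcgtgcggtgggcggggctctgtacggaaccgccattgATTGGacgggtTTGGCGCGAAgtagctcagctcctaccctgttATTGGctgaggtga
Cdk1: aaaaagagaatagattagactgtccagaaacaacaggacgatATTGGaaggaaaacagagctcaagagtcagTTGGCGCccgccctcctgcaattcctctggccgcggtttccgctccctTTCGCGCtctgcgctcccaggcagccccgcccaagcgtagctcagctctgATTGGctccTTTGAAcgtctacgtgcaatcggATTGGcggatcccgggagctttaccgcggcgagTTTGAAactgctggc
Ccnb2: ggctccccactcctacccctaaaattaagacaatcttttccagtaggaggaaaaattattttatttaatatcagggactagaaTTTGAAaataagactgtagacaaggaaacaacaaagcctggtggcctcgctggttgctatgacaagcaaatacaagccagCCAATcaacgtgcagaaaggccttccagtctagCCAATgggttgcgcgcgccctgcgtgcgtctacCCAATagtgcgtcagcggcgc
Rfc4: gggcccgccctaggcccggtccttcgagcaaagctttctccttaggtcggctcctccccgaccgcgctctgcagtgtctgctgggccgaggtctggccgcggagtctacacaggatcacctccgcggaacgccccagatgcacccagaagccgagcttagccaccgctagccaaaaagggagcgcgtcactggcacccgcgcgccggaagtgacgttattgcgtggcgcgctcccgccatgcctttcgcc

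Of the S phase genes, the helicase group includes Mcm2 to Mcm7, the 6 subunits of the replicative helicase ring, with Cdc6 and Cdt1, which load it, and Cdc45 and the GINS subunits, which activate it. Its 12 tested members had a median log2FC of 0.16, and none was called. Gins1 had the largest value, with 13.3 and 13.9 CPM with INK128 and 10.5 and 6.41 CPM in controls 1 and 3, a log2FC of 0.68 (SE 0.36, edgeR adjusted p = 0.233). Gins4 stood at 48.3 and 43.2 CPM against 33.5 and 24.3 CPM, a log2FC of 0.66 (SE 0.24, edgeR adjusted p = 0.127). For both, the treated libraries lay above both controls and control 3 was the lowest. Gins1 ranged from 0.35 to 1.07 and Gins4 from 0.44 to 0.90 over the libraries left out in turn, and with offsets for exon length they were at 0.05 and −0.01.

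Mcm4 had the smallest difference, with 64.8 and 51.2 CPM against 68.8 and 47.4 CPM and a log2FC of 0.00 (SE 0.26, edgeR adjusted p = 0.995). The 6 MCM subunits ranged from −0.15 for Mcm6 to 0.37 for Mcm7. Mcm6 stood at 92.2 and 87.4 CPM with INK128, between 127 CPM in control 1 and 72.4 CPM in control 3, and was at 0.30 without control 1 and −0.52 without control 3. The treated values of Mcm2, Mcm3, Mcm4, Mcm5 and Mcm6 overlapped the controls. Mcm7 alone of the 6 had both treated values above both controls, at 90.2 and 103 CPM against 89.2 and 59.8 CPM, so that control 1 lay just below INK128 1.

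The loading and activating factors gave no call either. Cdc6 was at −0.17 and Cdc45 at −0.09. Cdt1 at 0.49 had the largest gap between controls of any member, 2.53-fold, with 31.1 and 28.3 CPM with INK128 against 30.4 and 12 CPM, and it was at 1.29 without control 1 and −0.05 without control 3. Gins2 at 0.56 (1.09 without control 1 and 0.16 without control 3) shares 67.3% of its exon bases with Gse1 on the opposite strand, so its counts are uncertain. Gins3, below the filter, stood at 6.66 and 10 CPM against 6.77 and 5.36 CPM and had a log2FC of 0.51 (adjusted p = 0.390, edgeR among 17631 genes averaging over 1 CPM).

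The group of the clamp, clamp loader and polymerases had the highest median of the S phase role groups, 0.43 over 9 genes, and none was called. Rfc4, a subunit of the clamp loader that opens the clamp and places it on DNA, stood at 22.6 and 20.3 CPM with INK128 and at 10.8 and 11.5 CPM in the controls. Both controls were close for this gene, and log2FC was 0.94 (SE 0.25), with an adjusted p of 0.0757 in edgeR and 0.0176 in DESeq2. Rfc4 shares 12.7% of its exon bases with Eif4a2 on the opposite strand, which had a log2FC of 0.35. Eif4a2 stood far higher, at 398 and 466 CPM with INK128 and 364 and 313 CPM in the controls. Reads in the overlap cannot be told apart without the strand setting, so the counts of Rfc4 are uncertain.

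Rfc3 stood at 27.4 and 26.5 CPM against 18.4 and 14.5 CPM, a log2FC of 0.71 (SE 0.24, edgeR adjusted p = 0.114). Rfc2 and Rfc5 were at 0.53 and 0.42, and Pcna, the sliding clamp itself, at 0.58 (155 and 143 CPM against 107 and 91.8 CPM, edgeR adjusted p = 0.0944). In this group 6 genes, Pcna and Rfc1 to Rfc5, had both treated values above both controls, and Pola1 had both below. Among all genes 34.5% lay above and 34% below. Rfc1, the largest clamp loader subunit, had the smallest change of the group, with 68.8 and 67.1 CPM against 63.6 and 66.3 CPM and a log2FC of 0.06 (SE 0.16, edgeR adjusted p = 0.787). The catalytic subunits of the 3 replicative polymerases did not share a sign, with Pold1 at 0.43, Pole at −0.26 and Pola1 at −0.38, but with offsets for exon length they were at 0.48, 0.25 and 0.03. Over the libraries left out in turn, Pold1 ranged from 0.09 to 0.85, Pole from −0.52 to 0.03 and Pola1 from −0.42 to −0.33.

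The 3 genes of nucleotide supply each separated the groups, 2 above and 1 below the controls, as 34.5% and 34% of all genes did, and none was called. Tyms, encoding thymidylate synthase, stood at 32.5 and 50.9 CPM with INK128 and at 26.9 and 20.4 CPM in the controls, a log2FC of 0.82 (SE 0.31, edgeR adjusted p = 0.138), and its 1.57-fold gap was the largest of any member between the 2 INK128 libraries. Over the libraries left out in turn Tyms ranged from 0.46 to 1.11. Ribonucleotide reductase makes deoxynucleotides from a large subunit, Rrm1, and a small subunit, Rrm2. Rrm1 stood at 78.3 and 74.3 CPM against 130 and 87.4 CPM (log2FC −0.51, SE 0.25, edgeR adjusted p = 0.203). Rrm2 stood at 36.9 and 40.2 CPM against 34.4 and 31.5 CPM (0.23, SE 0.19, edgeR adjusted p = 0.424). Rrm1 was called lower without control 3, at −0.79 (edgeR adjusted p = 0.00326), but was at −0.21 (edgeR adjusted p = 0.340) without control 1. The subunits of this enzyme had opposite signs in the main test, and with offsets for exon length Rrm1 was at −0.01 and Rrm2 at −0.09.

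None of the cyclins that carry cells into and through S phase was called. Ccna2, encoding cyclin A2, stood at 72.4 and 74.4 CPM with INK128 and 74.7 and 57.0 CPM in the controls, a log2FC of 0.16 (SE 0.20, edgeR adjusted p = 0.595). Its partner Cdk2 stood at 40.3 and 46.9 CPM against 43.5 and 36.3 CPM, a log2FC of 0.13 (SE 0.20, edgeR adjusted p = 0.670). The treated values of Ccna2 lay between the controls, and those of Cdk2 lay on either side of control 1.

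Ccne2, encoding cyclin E2, stood at 22.3 and 29.1 CPM against 22.8 and 15.7 CPM (0.42, SE 0.30, edgeR adjusted p = 0.360), also on either side of control 1. Ccne1, encoding cyclin E1 and below the filter, stood at 6.98 and 6.30 CPM against 4.21 and 4.13 CPM, with both treated values higher. In a test of the 17631 genes that averaged over 1 CPM, log2FC was 0.72 (SE 0.36, edgeR adjusted p = 0.224), and none of the 17631 was called, 5797 of them having an unadjusted p below 0.05.

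In the M phase set, the B cyclins and Cdk1, the kinase they activate at entry into mitosis, differed in sign and none was called. Ccnb1 stood at 40.3 and 33.6 CPM with INK128 and at 49.5 and 33.4 CPM in the controls, a log2FC of −0.16 (SE 0.27, edgeR adjusted p = 0.677). Ccnb2 stood at 42.1 and 35.4 CPM against 27.6 and 28.9 CPM, a log2FC of 0.46 (SE 0.20, edgeR adjusted p = 0.178). Cdk1 stood at 66.5 and 54.0 CPM against 52.7 and 38.7 CPM, a log2FC of 0.40 (SE 0.24, edgeR adjusted p = 0.287). The treated values lay above both controls for Ccnb2 and Cdk1 and inside their range for Ccnb1. Over the libraries left out in turn, Ccnb1 ranged from −0.44 to 0.13, Ccnb2 from 0.33 to 0.59 and Cdk1 from 0.18 to 0.62.

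The 8 other M phase genes had a median log2FC of −0.05. Birc5, encoding survivin of the chromosomal passenger complex, had the largest value of all members, 0.97 (SE 0.46, edgeR adjusted p = 0.197). It stood at 58.2 and 45.9 CPM with INK128 against 37.4 CPM in control 1 and 15.8 CPM in control 3. The controls lay 2.37-fold apart, and the log2FC was 1.70 without control 1 and 0.46 without control 3.

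Top2a, encoding topoisomerase IIα, which untangles chromosomes, stood at 91.1 and 80.7 CPM with INK128 and at 125 and 127 CPM in the controls. Both treated values were lower, with a log2FC of −0.55 (SE 0.16) and an adjusted p of 0.0930 in edgeR and 0.0317 in DESeq2, at a fold change below 1.5. Mki67, encoding the proliferation marker Ki-67, stood at 78.4 and 74.9 CPM against 109 and 90.3 CPM, a log2FC of −0.38 (SE 0.18, edgeR adjusted p = 0.199). Bub1, a spindle checkpoint kinase, stood at 18.0 and 16.5 CPM against 24.3 and 19.4 CPM and was at −0.34. These were the 3 M phase genes with both treated values below both controls.

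Plk1, a kinase of mitotic entry and spindle assembly, had the smallest change, with 32.4 and 29.2 CPM against 36.5 and 22.3 CPM and a log2FC of 0.07 (SE 0.30, edgeR adjusted p = 0.884), which turned to −0.37 with offsets for exon length. Aurka was at 0.30 (0.79 without control 1 and −0.08 without control 3), Bub1b at −0.16 and Aurkb, the kinase that survivin accompanies, at 0.21 (25.8 and 23.9 CPM against 20.8 and 22 CPM). The mitotic genes often used as markers of proliferation did not share a sign: Mki67 and Top2a had negative and Ccnb2, Cdk1 and Birc5 positive values, and with offsets for exon length Mki67 turned to 0.09 and Ccnb2 to −0.18. Those offsets also turned Aurka to −0.05 and Aurkb to −0.06 and left 3 of the 11 M phase genes with positive values in place of 6.

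The spread between the controls was larger than that between the INK128 libraries for 34 of the 43 members. The median gap was 0.45 on the log2 scale between controls and 0.14 between INK128 libraries. Control 3 was the lowest of the 4 libraries for 29 members, and control 1 was the highest for 17. Control 1 exceeded control 3 for 24 of the 27 S phase and 8 of the 11 M phase genes, and for 3 of the 5 G1 genes. Relative to the mean of the 4 libraries, the median S phase gene stood at 0.08 and 0.17 on the log2 scale in the INK128 libraries, at 0.11 in control 1 and at −0.41 in control 3. The median M phase gene stood at 0.14, −0.02, 0.26 and −0.20 in the same order. By these medians control 1 resembled the treated rOvaries more than it resembled control 3.

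**Figure D4:**
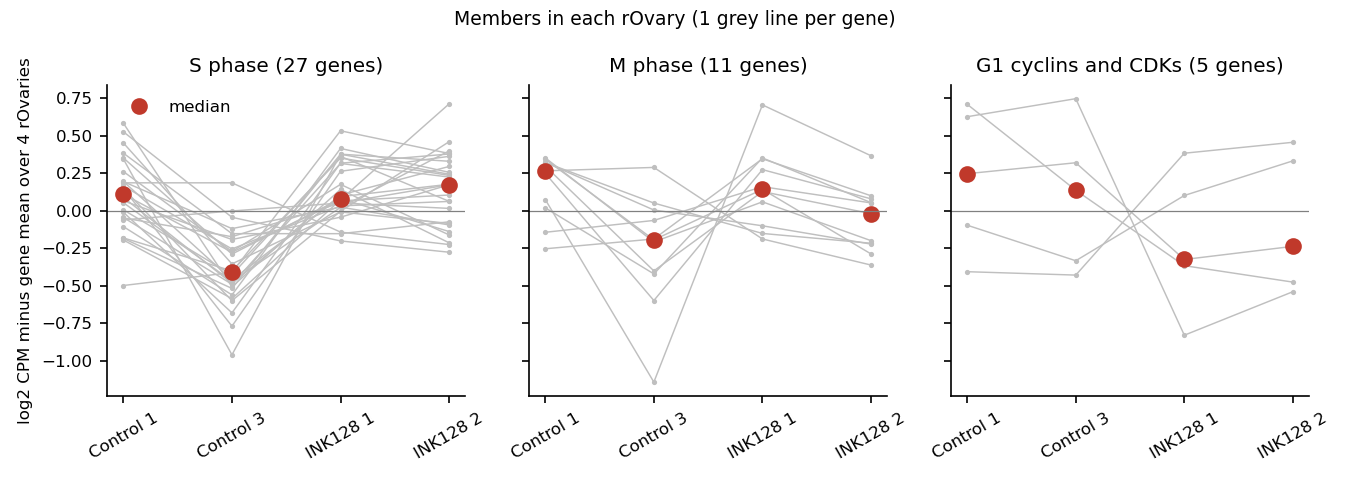
Log2 CPM of each member relative to its own mean over the 4 rOvaries (vertical axis) is drawn as a grey line across control 1, control 3, INK128 1 and INK128 2, with the median of the set in red, for S phase, M phase and G1 genes. The S phase median dips to −0.41 in control 3 and is between 0.08 and 0.17 in the other 3 libraries, whereas the G1 median is positive in both controls and negative in both INK128 rOvaries.

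The S phase result therefore depended on which control was used. Without control 1, edgeR called 13 of 26 tested S phase genes and 3 M phase genes higher and none of either lower, and 1 G1 gene higher and 2 lower, beside 22.7% and 23.1% of all genes. The S phase median was then 0.62. Without control 3, 1 S phase gene, Rfc4, was called higher and 1, Rrm1, lower, and no M phase gene was called, beside 21.3% and 21.4% of all genes, and the S phase median was 0.08. The M phase median was 0.16 without control 1 and −0.26 without control 3. Only Ccnd1, Cdk4 and Rfc4 were called without either control in turn. In these fits 1 control library stands for its group and is assumed to vary like the INK128 group.

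Exon length moved with the change across the members, as it did across all genes. Across the 43 members Spearman's rho between exon length and log2FC was −0.59, and it was −0.46 across 11700 genes. These points are genes of the same 4 libraries and not independent replicates. The 19 shorter S and M phase genes, of at most 4157 bases, had a median log2FC of 0.42 and 16 positive values, and the 19 longer ones a median of −0.15 and 9 positive values. With offsets that removed the trend with length, 9 of 43 members changed sign and no gene of the table was called, with 3140 at an unadjusted p below 0.05. Cdk4 was then at 0.64 (edgeR adjusted p = 0.113), Ccnd3 at 0.84 (edgeR adjusted p = 0.110) and Ccnd1 at −1.34 (edgeR adjusted p = 0.0768). Rfc4 moved to 0.30, Pcna to 0.19, Cdk6 to −0.28, Ccnd2 to −0.12, Top2a to −0.13 and Mki67 to 0.09. The median was 0.25 over S phase, −0.13 over M phase and −0.12 over G1 genes. The offsets used the length of all annotated exons, which for some members far exceeds that of the principal transcript. These lengths were 8775 and 2113 bases for Ccnd3, 11012 and 3997 for Rrm1, and 3402 and 947 for Birc5. Offsets from principal transcript lengths were not tried. Ccne2, Rfc2, Ccna2 and Rfc5 also share between 10.7% and 17.4% of their exon bases with a gene on the opposite strand, and the table lists pseudogenes named after Pcna, Tyms, Ccnd3, Ccnb1 and Ccnb2, with which reads could have been split.

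**Figure D5:**
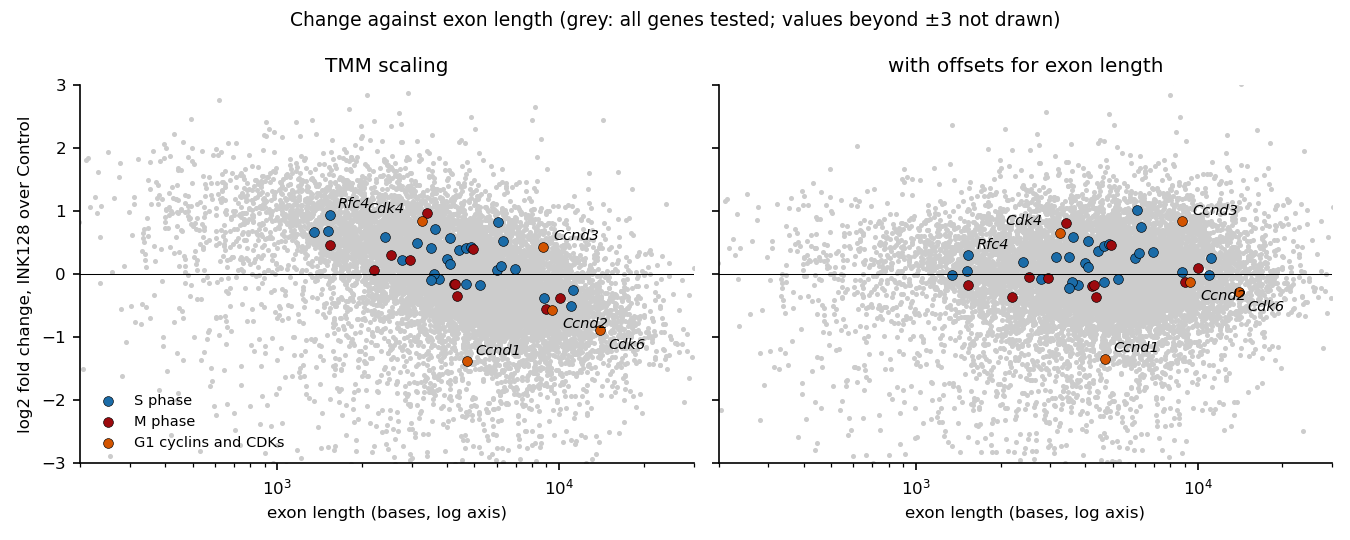
The log2FC of INK128-treated over control rOvaries (vertical axis) is plotted against exon length in bases (horizontal log axis) for all tested genes in grey and the members in color, with TMM scaling on the left and with offsets for exon length on the right. Members follow the downward trend on the left, and on the right Ccnd1 stays near the bottom at −1.34 while Rfc4, Ccnd2 and Cdk6 move toward 0.

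Wider lists were read beside the members. Of 50 other replication genes 41 were tested and none was called, beside 6.37% of all genes, with 10 at an unadjusted p below 0.05 higher and 0 lower, beside 17.7% and 18.7% of all genes. Their median was 0.32, with 31 positive and 10 negative values. DESeq2 called 9 higher and 0 lower, beside 13.6% and 15.1% of all genes. The largest values among the tested genes belonged to Dctpp1, a dCTP pyrophosphatase (39.6 and 55.8 CPM against 20.4 and 13.6 CPM, 1.49, edgeR adjusted p = 0.0562), Rpa3, a subunit of the single-strand binding protein (29.7 and 39.2 against 17.1 and 15.1 CPM, 1.10, edgeR adjusted p = 0.0600), and Dut, the dUTPase (74.7 and 75.7 against 40.4 and 32.1 CPM, 1.05, edgeR adjusted p = 0.0507). In all 3 genes both treated values lay above both controls. The lowest among the tested genes were Rbl1, encoding the pocket protein p107, at −0.55 (edgeR adjusted p = 0.197), and Mcmbp and Ticrr, both at −0.45 (adjusted p = 0.305 and 0.558, edgeR), and none of the 3 passed. Below the filter, E2f7, E2f8 and Atad5 were lower still, at −1.12, −0.91 and −0.90 in the test of genes averaging over 1 CPM (edgeR adjusted p = 0.111, 0.143 and 0.155), whereas Dscc1 was higher, at 1.45 (edgeR adjusted p = 0.148), and these 4 were named after their values were seen. Without control 1 the list had 21 genes called higher and 1 lower, and without control 3 it had 8 and 2, beside 22.7% and 23.1% of all genes in the first fit and 21.3% and 21.4% in the second.

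Of 70 other mitotic genes 61 were tested and 1 was called, beside 6.37% of all genes. Stmn1, encoding the microtubule-destabilizing protein stathmin, rose. It lies on chromosome 4 from 134468320 to 134473843 and stood at 208 and 200 CPM with INK128 and 104 and 108 CPM in the controls, a log2FC of 0.94 (SE 0.16, edgeR adjusted p = 0.0487). This call was lost with limma voom, with genes down to 1 CPM (edgeR adjusted p = 0.0558), with library totals, with offsets for exon length or GC content, and without either INK128 library. The list had a median of −0.03, with 30 positive and 31 negative values. DESeq2 called 5 genes higher (Stmn1, Pttg1, Cks1b, Cdca3 and Cenpa) and 2 lower (Smc2 and Smc4, condensin subunits), beside 13.6% and 15.1% of all genes, and these names were read after the values were known. Without control 1 the list had 15 genes called higher and 5 lower, and without control 3 it had 5 and 8, beside the same shares of all genes (22.7% and 23.1%, then 21.3% and 21.4%).

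Markers of kidney, the tissue around the graft, and of immune cells had lower summed levels with INK128. All 12 tested kidney markers of 15 listed had both treated values below both controls, which held for 34% of all genes, with a median log2FC of −4.03, and 6 were called lower, beside 3.19% of all genes. Among the markers below the filter, Slc12a1 had a negative value, whereas Nphs1, of podocytes, stood higher with INK128, at 7.41 and 8.79 against 3.67 and 6.37 CPM. Their summed level was 98.3 and 202 CPM with INK128 and 800 and 1574 CPM in controls 1 and 3, and Slc12a1, a defining marker of the thick ascending limb, was at 0 in INK128 2. All 9 tested immune markers of 15 had a negative value, with a median of −1.06 and 1 called, Cd74, and summed levels of 485 and 456 CPM against 940 and 1339 CPM. For 8 of the 9 both treated values lay below both controls, and the 6 immune markers below the filter included both overlapping and lower ones. Among 7 endothelial markers Kdr was called lower (log2FC −1.54), Emcn and Egfl7 lay above both controls, and Pecam1, Cdh5, Tie1 and Tek overlapped them. Among 8 stromal markers Nr2f2 was called higher (log2FC 1.05), with Dcn, Lum, Col1a2 and Tcf21 also above both controls. Pdgfra, Col1a1 and Col3a1 overlapped the controls. Of all genes 3.18% were called higher and 3.19% lower, and 34.5% lay above both controls and 34% below. Like Ccnd1, Ccnd2 and Cdk6, the summed levels of the kidney and immune lists were lower in each INK128 library than in each control, and the part of all these markers in the differences of the members was not tested.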

How the data were processed

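The values were raw counts of reads per gene symbol, which the authors deposited without normalization. The submitters' processing notes name Trimmomatic, HISAT2, featureCounts and the build mm10; the strand setting is not given in the sources used here. Counts were tested with edgeR 4.0.16 in R 4.3.3 (TMM, quasi-likelihood F-test, Benjamini-Hochberg adjustment across the 11758 genes whose CPM averaged over 10, calls beyond 1.5-fold). Standard errors were obtained by dividing log2FC by the root of F. Alternatives were DESeq2 1.42.0, limma 3.58.1 voom, other scalings and filters, offsets for exon length or GC content, and leaving out each library. In simulated data for this comparison (200 of 11758 genes shifted by a log2FC of 3) edgeR recovered 93% with 11% of its calls false, and DESeq2 99% with 28% false. That shift is larger than the change of any tested member (−1.38 to 0.97). Recovery of changes as small as those of the members was not measured.

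Exon lengths and positions came from GENCODE M21 on mm10 (53447 of 54021 symbols matched by name). The members and lists were chosen with earlier results of these data known. Values in every library are given for called members, for the 2 largest and the smallest changes of each of 7 role groups and for all D, E, A and B cyclins and their kinases. From a wider list the called genes, or else the 3 largest changes in each direction, are named. The values of Pcna, Mki67, Cdt1, Mcm6, Mcm7, Bub1 and Aurkb were added after they were seen.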

Additional observations from a re-analysis of the deposited data

How the results depend on the processing

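Ccnd1 kept its direction in every alternative run (−1.52 to −1.23) but was called only in edgeR under TMM (ribosomal protein genes included or not), RLE and library-total scaling, under CPM filters of above 10 or of 1 count, with no limit on the fold change, without either control, and with DESeq2. With limma voom, mean CPM above 1, and offsets for exon length or GC content, 0 members, 0 mitotic genes of the wider list and 0 genes in all were called in either direction; 3979, 5797, 3140 and 4118 genes then had an unadjusted p below 0.05, and 4276 in the main test. In these 4 Ccnd1 had adjusted p values of 0.0599, 0.0555, 0.0768 and 0.0509.

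Genes called higher and lower in all numbered 374 and 375. DESeq2 gave 1595 and 1772, with 2 members higher and 2 lower, 9 wider replication genes higher, and 5 wider mitotic genes higher and 2 lower. A CPM above 10 in at least 2 libraries gave 728 and 834, with 1 member higher (Cdk4, adjusted p = 0.0474) and 3 replication genes higher. With no filter beyond 1 count there were 1152 and 1953, with 1 member higher (Cdk4, adjusted p = 0.03), and 4 replication and 3 mitotic genes higher. Library totals gave 290 and 580, with 0 mitotic genes and a shift of −0.12 in the median of all genes, and 3 of 43 members changed sign. The G1 median was −0.69 with library totals, −0.12 with length offsets and −0.47 with GC offsets.

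Leaving out each library in turn gave 0 to 2624 genes higher and 0 to 2666 lower in all, 0 to 17 members higher and 0 to 3 lower, 0 to 21 replication genes higher and 0 to 2 lower, and 0 to 15 mitotic genes higher and 0 to 8 lower. Medians ranged from 0.08 to 0.62 over S phase, −0.26 to 0.16 over M phase and −0.60 to −0.52 over G1 genes. No paired analysis was possible because the groups share only replicate number 1. The precision of every value is limited by 2 libraries a group.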
